A study of Mus musculus with 8 samples.

Results

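In B16F10 cells, a mouse melanoma line, 60 genes were lower in both libraries labelled CypD OE than in each of the other 6 libraries of an RNA-seq experiment. They were chosen from a table of TPM, the abundance of a gene's transcripts relative to all transcripts of a library, scaled for length. A gene was taken when its lowest value among the 2 WT, 2 CypD KO and 2 Control libraries was at least 3 TPM and at least 1.7 times the higher of the 2 CypD OE libraries, and genes with provisional or small RNA symbols were left out. The table lists 55414 genes, of which 9590 had a symbol kept by the rule and at least 3 TPM in those 6 libraries, so that 0.626% of the genes that could meet the fold limit did so. Another 5 genes met both limits but were left out for their symbol. The opposite pattern, in which the lower CypD OE library was at least 3 TPM and 1.7 times the highest of the other 6, was found for 54 genes.

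CypD (cyclophilin D), the product of Ppif, is a mitochondrial matrix protein known as a regulator of the permeability transition pore. WT cells and CypD KO cells, in which Ppif was targeted with CRISPR/Cas9 and clones were selected with puromycin, were kept at 21% oxygen. Control cells, carrying the empty pcDNA plasmid, and cells labelled CypD OE, described as carrying pcDNA with the CypD sequence, were stable lines selected with G418 and kept at 1% oxygen. All groups had 24 h in their oxygen concentration and 2 libraries each. CypD OE differs from Control in the plasmid and in the clone or clones selected, which cannot be told apart. Control differs from WT in oxygen, plasmid and selection together. CypD KO differs from WT in the targeting of Ppif, the transfection, the puromycin selection and the clones selected, which cannot be told apart either. Between CypD KO and Control, oxygen, plasmid and the selecting drug differ as well. Low oxygen is known to stabilise HIF, a transcription factor that raises glycolytic genes, and MITF is the known master regulator of pigment cell genes in melanocytes and melanoma.

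Ppif itself was 50.68 and 49.99 TPM in WT, 10.4 and 12.1 in CypD KO, 44.6 and 42.3 in Control, and 50.3 and 49.3 in CypD OE. It was thus lower in the knockout libraries (log2 fold change -2.07, SE 0.07, limma adjusted p = 3.81e-06). In the libraries labelled CypD OE it was higher than in Control by 0.19 on the log2 scale (SE 0.07, adjusted p = 0.0794), which misses the threshold of 0.05, and the values overlap those of WT. The adjusted p was 0.0325 to 0.271 over the other settings, and 0.0325 without CypD KO replicate 1 and 0.033 without CypD KO replicate 2. At the level of RNA, Ppif thus does not clearly bear out the label. The methods of the study report CypD overexpression in the stable cells by western blot, which measures protein. Whether transcripts of the plasmid were counted as Ppif was not tested. The values below describe the libraries labelled CypD OE, with nothing drawn from them about the amount of CypD. Melanoma markers made up 12830 to 21480 TPM per library in sum, all 10 of them above 1 TPM in some library. The 8 keratinocyte markers summed to at most 0.51 TPM and the 8 endothelial markers to at most 4.21. The depth came to about 25600000 to 30100000 fragments per library. Mitochondrially encoded transcripts took 13.0% and 13.7% of TPM in CypD OE and 9.5% to 11.2% elsewhere, and their part in the values below was not tested.

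Of the 60 genes, 59 code for proteins and Peg13 is a long noncoding RNA. Their mean over the 6 other libraries ran from 4.18 to 186 TPM with a median of 19.3. The ratio used by the rule had a median of 2.25 and was over 5 for 13 genes, over 2 for 41 and 2 or less for 19. These values chose the genes and are given as a description. Against WT, the CypD OE mean had a median of 36.8%, and above 0 it ran from 0.787% to 55.8%. Against Control the median was 27.0%, and against CypD KO it was 21.7%. The 2 CypD OE libraries differed by a median of 10.4% of their mean over the 60 genes. Just inside the fold limit were Gstk1 (ratio 1.72), Col16a1 (1.73) and Ano3 (1.73), and just outside it were Rcsd1 (1.68), Cers6 (1.67) and Ankmy2 (1.67). Just inside the TPM limit were Tmem255a (lowest of the 6 libraries 3.05 TPM) and Cd68 (3.45 TPM), and just outside it were Pltp (2.98 TPM) and Spp1 (2.96 TPM). Without CypD OE replicate 1, 98 genes met the rule, the 60 among them.

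**Figure D1:**
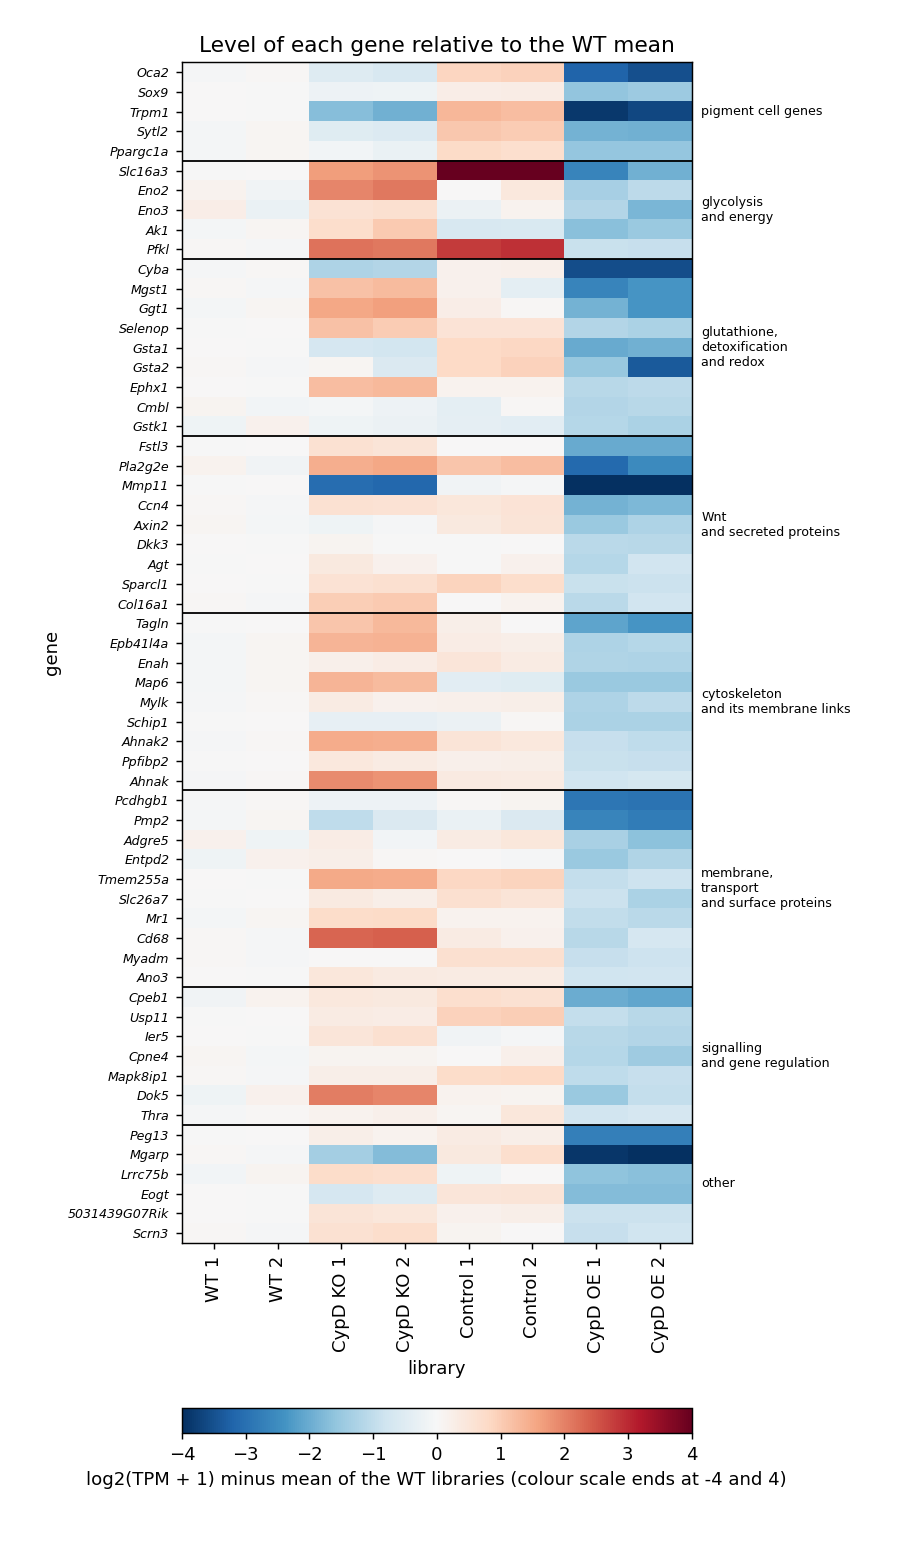
Each row is 1 of the 60 genes and each column 1 of the 8 libraries, with colour showing log2(TPM + 1) minus the mean of the WT libraries, and black lines separate groups of genes by known function. The CypD OE columns are blue throughout, as the rule requires, while the other columns differ from gene to gene, with Slc16a3 and Pfkl high in Control and Cd68 and Dok5 high in CypD KO.

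The other 6 libraries were not at one level for these genes. The highest of the 6 was 1.12 to 24.97 times the lowest, with a median of 2.08, under 1.7 for 23 genes and over 3 for 19. The highest group mean was that of CypD KO for 30 genes, Control for 25 and WT for 5. Comparisons among these groups were tested with limma across 13526 genes, with all 60 among them since the rule asks for at least 3 TPM. Their fold changes do not use the CypD OE values. Their p-values do, since the spread was estimated from all 8 libraries. In CypD KO minus WT, 33 of the 60 rose and 10 fell, where 30.1% of all genes tested rose and 18.4% fell. The median log2 fold change was 0.35 over the 60 and 0.09 over all genes tested. In Control minus WT, 26 rose and 3 fell, against 12.1% and 12.1% of all genes, with medians of 0.26 and 0.01. The 3 that fell were Ak1, Map6 and Gstk1, and this count was 1 without WT replicate 2 or Control replicate 1 and 0 in limma without Control replicate 2, where 3 had an unadjusted p under 0.05. In CypD KO minus Control, 22 were higher and 17 lower, against 27.4% and 16.5% of all genes, with medians of 0.05 and 0.07. These comparisons share libraries with one another, and they are not free of the rule. A gene low in WT, CypD KO or Control was less likely to meet the 3 TPM limit or to stay 1.7 times above CypD OE. The limits thus act on genes that rose from a low WT level as well as on genes that fell. Their effect on the balance of higher and lower counts was not tested, and nothing is read from that balance.

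**Figure D2:**
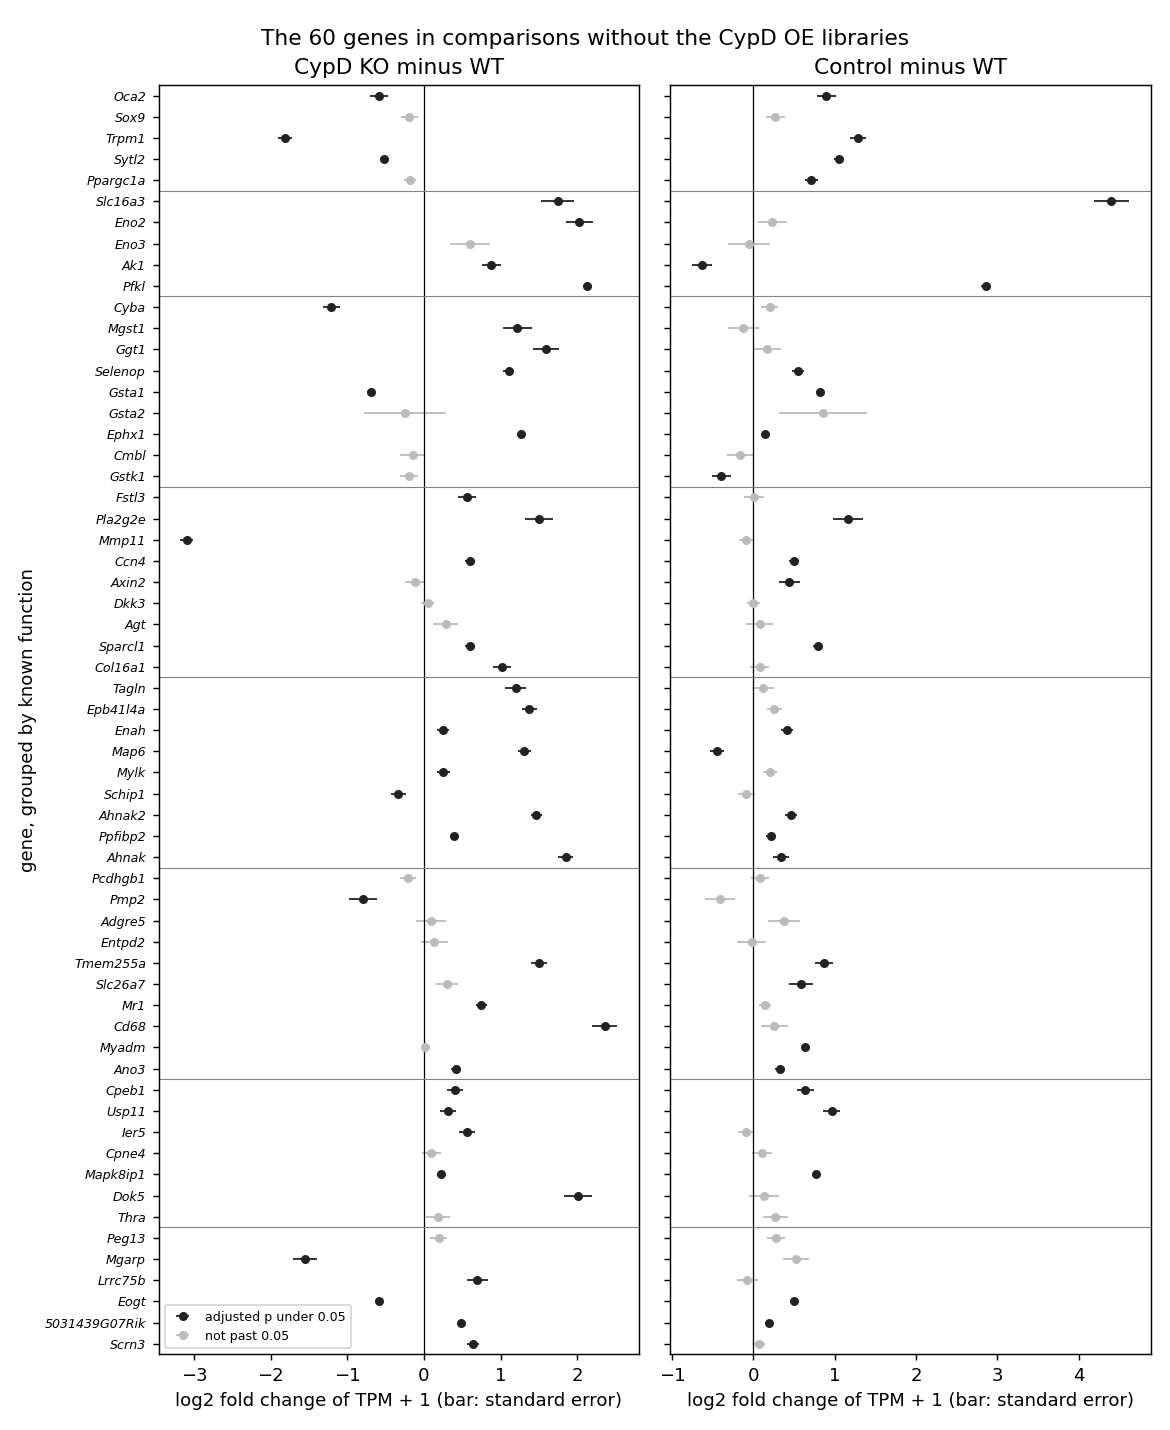
The log2 fold change of TPM + 1 is plotted for each of the 60 genes in CypD KO minus WT (left) and Control minus WT (right), with bars for the standard error and black points for an adjusted p under 0.05. The largest increases are those of Cd68 and Pfkl on the left and Slc16a3 and Pfkl on the right, and Mmp11 has the lowest value, on the left.

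The start regions of the 60 genes were read from GRCm39, from 250 bases before to 50 after the start of each gene's canonical transcript, which need not be the start used in these cells. They held fewer CpG pairs than those of all 13476 genes read, with a median of 8.5 against 17, and their GC content was 54.3% against 57.3%. The core of the hypoxia response element (ACGTG or GCGTG, either strand) was in 27 of 60 windows, 45.0% against 59.0% of all. The E-box CACGTG, which contains ACGTG and is a sequence that MITF is known to bind, was in 4 (6.67% against 9.65%), and CATGTG, the core of the M-box, in 5 (8.33% against 9.86%). The AP-1 sequence TGACTCA, on either strand, was in 5 windows, those of Sox9, Cd68, Mylk, Entpd2 and Pmp2, or 8.33% against 3.65% of all. On the gene's own strand it was in 1 window, 1.67% against 1.84% of all. These are shares of letters in a window and were given no test. Stretches of 30 bases around some matches are shown to let them be compared between genes, with the match in capitals and each read 5′ to 3′ along the strand of its gene. They are examples from genes described below, with the match before the start. Hypoxia response element cores stood before the start of other genes too, Mgarp, Enah and Ccn4 among them, and that of Slc16a3 is shown as an example, the gene of the 60 with the largest rise in Control minus WT. The E-box stretches are chr7:63834966-63834995 (plus strand) for Trpm1, chr11:70547605-70547634 (plus) for Eno3 and chr9:104446648-104446677 (plus) for Cpne4, and the stretch with a hypoxia response element core is chr11:120839470-120839499 (plus) for Slc16a3.
Trpm1: agtaattggaagCACGTGgctcctcttcct
Eno3: gagtgagtggagCACGTGtcagtcttgcag
Cpne4: ggagaaattaatCACGTGcctctcaggagc
Slc16a3: ggtgtggtggggGCGTGtgccacccggcag
The AP-1 stretches are chr11:112672957-112672986 (plus strand) for Sox9, chr11:69557127-69557156 (minus) for Cd68, chr16:34605245-34605274 (plus) for Mylk, chr2:25285776-25285805 (plus) for Entpd2 and chr3:10249024-10249053 (minus) for Pmp2. All but that of Sox9 read TGAGTCA, the reverse complement of TGACTCA.
Sox9: gccaacactgaTGACTCAagagctagccgt
Cd68: taagttccgtgTGAGTCAgctgcctcattc
Mylk: gaaggcactggTGAGTCAgcagggcttaag
Entpd2: ggtggtgcggcTGAGTCAcctacacgcttc
Pmp2: gggtctcagggTGAGTCAcatgctttgggt

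A few genes were close to absent in CypD OE while each of the other 6 libraries held them. Cyba (chr8:123150422-123159706, GRCm39) encodes p22phox, the membrane subunit shared by NADPH oxidases, and measured 10.2 and 11.2 TPM in WT, 3.96 and 4.19 in CypD KO, 12.3 and 12.6 in Control and 0 and 0 in CypD OE. Peg13 (chr15:72677449-72682173), an imprinted long noncoding RNA, measured 5.55 and 5.66 TPM in WT, 6.72 and 6.36 in CypD KO, 7.31 and 6.76 in Control and 0 and 0 in CypD OE. Both were listed at 0 in both CypD OE libraries, so no ratio can be given. Peg13 lies within Trappc9, a gene for a trafficking subunit on the same strand, and Trappc9 did not share the pattern, with 5.01 and 4.52 TPM in WT, 8.43 and 8.51 in CypD KO, 5.19 and 5.53 in Control and 5.27 and 5.12 in CypD OE. Pcdhgb1, a clustered protocadherin that mediates recognition between cell surfaces, measured 6.72 and 7.26 TPM in WT, 5.92 and 5.93 in CypD KO, 7.3 and 7.62 in Control and 0.07 and 0.04 in CypD OE. Its ratio was 84.6. Its neighbour Pcdhgb2 shares its last exons, so reads there may have been divided between them. It measured 37.6 and 37.1 TPM in WT, 45.5 and 41.1 in CypD KO, 37.8 and 40.8 in Control and 48.1 and 48.2 in CypD OE. The CypD OE values of Pcdhgb2 were thus the highest of the 8 libraries. Added together, the TPM of Pcdhgb1 and Pcdhgb2 in CypD OE lay within the range of the other 6 libraries, so their combined level was not low there. How reads were divided between the 2 genes was not tested. Fstl3, a secreted inhibitor of activin, measured 3.46 and 3.54 TPM in WT, 5.88 and 5.41 in CypD KO, 3.5 and 3.55 in Control and 0.12 and 0.12 in CypD OE, with a ratio of 28.8. At the depth of these libraries the CypD OE values of Pcdhgb1 and Fstl3 correspond to about 2 to 4 fragments, so their ratios are imprecise.

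Mgarp, a mitochondrial protein gene known to respond to low oxygen, measured 20.3 and 19.3 TPM in WT, 7.06 and 5.25 in CypD KO, 26.1 and 31.9 in Control and 0.4 and 0.24 in CypD OE. Mmp11, the secreted protease stromelysin-3, measured 43.2 and 44.2 TPM in WT, 4.41 and 4.08 in CypD KO, 39.9 and 42.1 in Control and 0.58 and 0.47 in CypD OE. Both were also low in CypD KO: Mgarp fell there by 1.55 on the log2 scale (SE 0.16, adjusted p = 0.000285) and Mmp11 by 3.09 (SE 0.08, adjusted p = 1.49e-06). Cyba fell as well (log2 fold change -1.21, SE 0.11, adjusted p = 0.000146), and its CypD KO libraries at about 4 TPM were still apart from CypD OE. Peg13 and Pcdhgb1 did not pass in any of the 3 comparisons, with log2 fold changes of 0.19 and -0.21 in CypD KO minus WT.

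**Figure D3:**
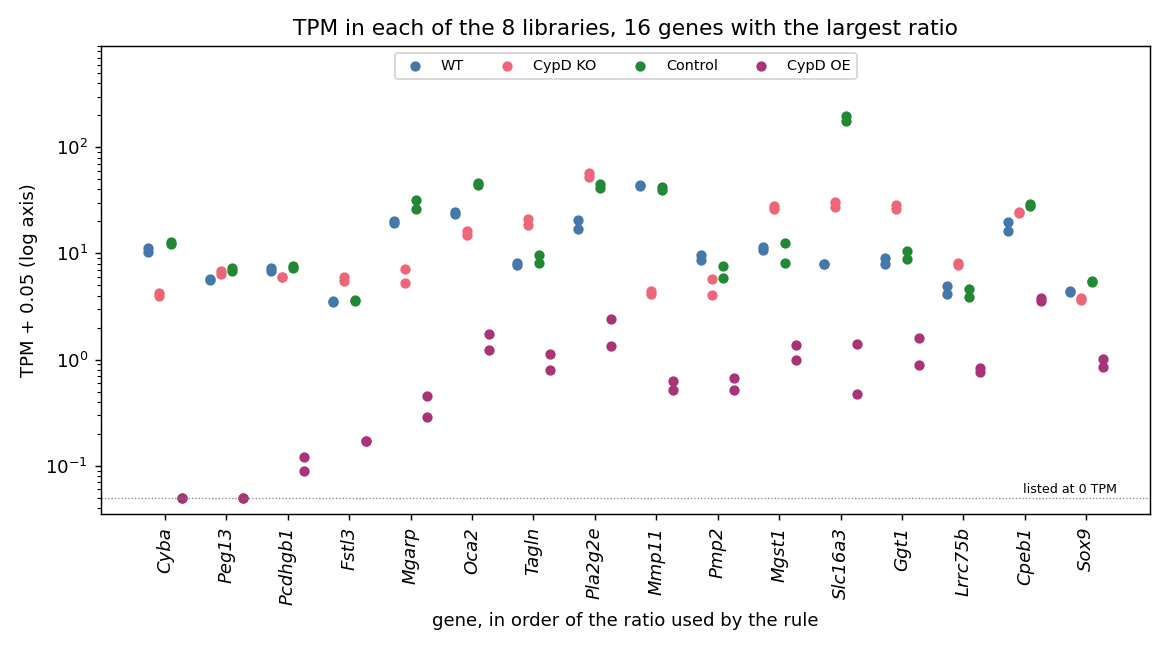
TPM + 0.05 is shown on a log axis for the 16 genes with the largest ratio, with 1 point per library and a colour per group. The CypD OE points lie below all others for each gene, at 0 TPM for Cyba and Peg13, and Slc16a3 has the widest spread among the other groups, from 7.89 TPM in WT to 197 TPM in Control.

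The genes were sorted by known function into 8 groups, made after their values had been seen. Counts within these small groups stand beside 30.1% higher and 18.4% lower over all genes tested in CypD KO minus WT. Those shares were 12.1% and 12.1% in Control minus WT, and 27.4% and 16.5% in CypD KO minus Control. Counts near these shares are not a result about a group. The pigment cell group holds 5 genes, all lower in CypD KO than in Control, with 3 falling in CypD KO minus WT and 4 rising in Control minus WT. Trpm1, a cation channel gene of melanocytes known as an MITF target, measured 150.2 and 145 TPM in WT, 44.3 and 38.4 in CypD KO, 374 and 348 in Control and 9.28 and 10.9 in CypD OE. Its order of levels was Control, WT, CypD KO and CypD OE, with no overlap between groups, and CypD OE stood at 6.86% of WT and 2.8% of Control. Trpm1 rose in Control (log2 fold change 1.29, SE 0.09, adjusted p = 0.000264) and fell in CypD KO (log2 fold change -1.81, SE 0.09, adjusted p = 1.56e-05). Oca2, which encodes a melanosomal anion transporter that sets melanosome pH, had the same order, with 23.2 and 24.4 TPM in WT, 16.4 and 14.7 in CypD KO, 44.3 and 46.1 in Control and 1.69 and 1.17 in CypD OE. Sytl2, which links RAB27A on melanosomes to the membrane, measured 86.7 and 96.5 TPM in WT, 65.4 and 62 in CypD KO, 196 and 185 in Control and 23.8 and 23.6 in CypD OE, again in that order. Ppargc1a encodes PGC-1α, a coactivator of mitochondrial biogenesis that MITF is known to drive in melanoma, and measured 29.1 and 32 TPM in WT, 28.2 and 25.3 in CypD KO, 52.4 and 49 in Control and 9.76 and 9.75 in CypD OE. Its rise in Control (log2 fold change 0.71, SE 0.08, adjusted p = 0.00134) passed the test, and its difference between CypD KO and WT did not (log2 fold change -0.19, SE 0.08, adjusted p = 0.0901). Sox9, a transcription factor of the neural crest lineage, measured 4.35 and 4.32 TPM in WT, 3.6 and 3.76 in CypD KO, 5.36 and 5.49 in Control and 0.8 and 0.96 in CypD OE. Neither of its differences from WT passed.

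Most other pigment genes were also lower in CypD OE than in Control, by less. Of 42 tested genes in a list of melanocyte and pigmentation genes, 26 were lower and 6 higher, where 18.3% of all genes tested were lower and 19.0% higher. Trpm1 and Oca2, which are in that list, were chosen on these libraries, and of the other 40 genes 24 were lower. The list's median log2 fold change was -0.42, against 0.00 over all genes tested. Mitf, chosen for mention after its values were seen, measured 277 and 281 TPM in WT, 280.3 and 265 in CypD KO, 379 and 371 in Control and 203 and 189.7 in CypD OE. Its level in CypD OE was below that in Control (log2 fold change -0.93, SE 0.04, adjusted p = 1.86e-05). Tyr, the rate-limiting enzyme of melanin synthesis, measured 37.4 and 41.2 TPM in WT, 167 and 147 in CypD KO, 74.2 and 75.5 in Control and 74.1 and 74.9 in CypD OE. Its difference between CypD OE and Control was -0.01 on the log2 scale (SE 0.07, adjusted p = 0.95). Mlana, a melanosome antigen, gave 0.03 (SE 0.02, adjusted p = 0.286).

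Glycolysis and energy metabolism are represented by 5 genes. Slc16a3, which encodes the lactate exporter MCT4, measured 7.89 and 7.9 TPM in WT, 27.5 and 30.2 in CypD KO, 177 and 197 in Control and 0.42 and 1.36 in CypD OE. Its Control libraries were far above WT (log2 fold change 4.40, SE 0.21, adjusted p = 5.15e-05). Its CypD KO libraries were also higher than WT (log2 fold change 1.74, SE 0.21, adjusted p = 0.000676), and CypD OE stood at 0.475% of Control and 11.3% of WT. Pfkl, the liver-type phosphofructokinase of glycolysis, measured 25.3 and 23.6 TPM in WT, 113 and 109 in CypD KO, 175 and 193 in Control and 12.6 and 12.4 in CypD OE. It rose both in Control (log2 fold change 2.86, SE 0.06, adjusted p = 2.31e-06) and in CypD KO (log2 fold change 2.13, SE 0.06, adjusted p = 1.75e-06), and CypD OE at 1% oxygen stood at 51% of WT at 21%. These 2 genes were highest in Control, whereas the remaining members of the group were highest in CypD KO. Eno2, a neuronal isoform of the glycolytic enzyme enolase, measured 8.23 and 6.59 TPM in WT, 31.4 and 34.9 in CypD KO, 7.53 and 10.3 in Control and 2.35 and 3.06 in CypD OE. It rose in CypD KO (log2 fold change 2.03, SE 0.18, adjusted p = 0.000142) and gave 0.23 in Control minus WT (SE 0.18, adjusted p = 0.39). Eno3, the muscle isoform, measured 30 and 20.4 TPM in WT, 37.2 and 38.8 in CypD KO, 20.9 and 27.4 in Control and 10.4 and 6.26 in CypD OE. No comparison of Eno3 among WT, CypD KO and Control passed. Ak1, adenylate kinase, measured 26 and 29.7 TPM in WT, 46.3 and 58.3 in CypD KO, 17.4 and 17.9 in Control and 8.03 and 9.25 in CypD OE. It was higher in CypD KO than in WT and lower in Control than in WT (log2 fold change -0.63, SE 0.13, adjusted p = 0.0131).

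Across a list of glycolysis and lactate genes, 18 of 30 tested were lower and 4 higher in CypD OE than in Control, and 15 of 27 were lower without Slc16a3, Pfkl and Eno2. The median log2 fold change of the list was -1.26. A second list, of HIF targets outside glycolysis, had 36 of 42 tested genes lower and 3 higher, with a median of -1.41, and none of them was among the 60. Of all genes tested, 18.3% were lower and 19.0% higher in CypD OE minus Control. In Control minus WT, 35 of the 42 HIF targets were higher and 1 lower, beside 12.1% and 12.1% of all genes tested. The list genes Ldha, which makes lactate from pyruvate, and Pgk1, a kinase of the glycolytic pathway, were named after their values were seen. Ldha measured 1277 and 1236 TPM in WT, 2215 and 2167 in CypD KO, 3706 and 3853 in Control and 948 and 895 in CypD OE. Pgk1 measured 1154 and 1095 TPM in WT, 2468 and 2444 in CypD KO, 3483 and 3695 in Control and 834 and 810.4 in CypD OE. Both missed the rule, since WT was less than 1.7 times CypD OE. Bsg, the chaperone that carries MCT4 to the membrane and another gene named after its values were seen, showed the same order, with 439 and 424 TPM in WT, 853 and 894 in CypD KO, 933 and 958 in Control and 369 and 380.2 in CypD OE.

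Glutathione metabolism, detoxification and redox enzymes gave 9 genes, of which 4 rose and 2 fell in CypD KO minus WT, beside 30.1% and 18.4% of all genes tested. Gsta1, a glutathione transferase and one of the most abundant of the 60, measured 128 and 125 TPM in WT, 79.7 and 76.3 in CypD KO, 221 and 227 in Control and 30.6 and 32.8 in CypD OE, highest in Control. Gsta2, a nearly identical copy, measured 10.9 and 10.1 TPM in WT, 11.2 and 6.69 in CypD KO, 18.8 and 20.7 in Control and 2.99 and 0.12 in CypD OE. Reads of Gsta1 and Gsta2 cannot be separated with certainty, and the 2 CypD OE values of Gsta2 differ by a wide margin, so that it is uncertain. Mgst1, a microsomal glutathione transferase, measured 11.5 and 10.6 TPM in WT, 25.9 and 28.2 in CypD KO, 12.4 and 8.12 in Control and 0.94 and 1.33 in CypD OE. Ggt1, the surface enzyme that breaks down extracellular glutathione, measured 7.86 and 9.01 TPM in WT, 26.4 and 28.5 in CypD KO, 10.4 and 8.77 in Control and 1.53 and 0.84 in CypD OE. Both were near 10% to 14% of WT in CypD OE and both rose in CypD KO, Mgst1 by 1.22 (SE 0.19, adjusted p = 0.00199) and Ggt1 by 1.59 on the log2 scale (SE 0.17, adjusted p = 0.000351). Ephx1, a microsomal epoxide hydrolase, measured 107 and 105 TPM in WT, 252 and 263 in CypD KO, 118 and 117 in Control and 49.1 and 51.3 in CypD OE. This gene rose in CypD KO (log2 fold change 1.27, SE 0.04, adjusted p = 2.36e-06). Selenop, a secreted selenium carrier, measured 17.2 and 17.5 TPM in WT, 40.6 and 36.5 in CypD KO, 25.6 and 26.1 in Control and 7.08 and 6.62 in CypD OE. It was higher in both CypD KO and Control than in WT. Cmbl and Gstk1 were at 37.8% and 39.9% of WT in CypD OE, and neither passed in CypD KO minus WT. In a list of NRF2 and glutathione genes, more of the 45 tested genes were higher (17) than lower (8) in CypD OE than in Control. Gsta1 and Mgst1 are among the 8, while 6 of the other 43 were lower, and the list's median was 0.00. Over all genes tested, 19.0% were higher and 18.3% lower in that comparison. The list gene Slc7a11, the cystine importer that supplies glutathione synthesis, was named after its values were seen and measured 8.82 and 9.69 TPM in WT, 10.6 and 11 in CypD KO, 1.68 and 1.4 in Control and 31 and 28.8 in CypD OE.

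Wnt-related and other secreted proteins gave 9 genes, of which 5 rose and 1 fell in CypD KO minus WT and 4 rose in Control minus WT. Of all genes tested, 30.1% rose and 18.4% fell in the former and 12.1% rose in the latter. Axin2, a negative feedback target of Wnt signalling, measured 8.04 and 7.06 TPM in WT, 6.55 and 7.25 in CypD KO, 10.1 and 11.1 in Control and 2.03 and 2.63 in CypD OE. Dkk3, a secreted protein of the Dickkopf family, measured 13.1 and 12.8 TPM in WT, 14.2 and 12.7 in CypD KO, 12.8 and 13.1 in Control and 5.61 and 5.52 in CypD OE. The 6 libraries outside CypD OE lay within 12.7 to 14.2 TPM. Ccn4 (WISP1), a matricellular protein gene known as a Wnt target, measured 33.6 and 32 TPM in WT, 50.8 and 49.5 in CypD KO, 45.4 and 47.9 in Control and 8.12 and 8.72 in CypD OE. It was higher in CypD KO (log2 fold change 0.60, SE 0.06, adjusted p = 0.00028) and in Control (log2 fold change 0.49, SE 0.06, adjusted p = 0.00206) than in WT. Of 26 tested genes in a Wnt list, 10 were higher and 2 lower in CypD OE than in Control, and the 2 lower genes were Axin2 and Dkk3 themselves. Of the other 24, 0 were lower by limma at an adjusted p under 0.05 and 1 at an unadjusted p under 0.05, and the list's median log2 fold change was 0.19. Over all genes tested, 19.0% were higher and 18.3% lower in CypD OE than in Control. Pla2g2e, a secreted phospholipase, measured 20.4 and 16.9 TPM in WT, 52.1 and 56.6 in CypD KO, 41 and 44.5 in Control and 1.28 and 2.37 in CypD OE. It rose in both CypD KO (adjusted p = 0.000654) and Control (log2 fold change 1.16, SE 0.18, adjusted p = 0.00552). Sparcl1, a matricellular protein gene, measured 54.6 and 53.5 TPM in WT, 80.4 and 84.4 in CypD KO, 101 and 88.8 in Control and 28.5 and 29.5 in CypD OE. Col16a1, a collagen chain, measured 13.9 and 13.1 TPM in WT, 27.8 and 29 in CypD KO, 13.5 and 15.1 in Control and 5.81 and 7.54 in CypD OE. Col16a1 rose in CypD KO (log2 fold change 1.02, SE 0.12, adjusted p = 0.000536) and Sparcl1 was highest in Control. Agt, the angiotensin precursor, had no comparison past the threshold. The 10 fibroblast markers, of which Dcn and Thy1 were at 0 in all libraries, summed to 19.8 to 22.5 TPM in WT, 76.5 to 76.9 in CypD KO, 24.1 to 26.3 in Control and 11.2 to 13.0 in CypD OE. Col1a1 and Postn carried most of the CypD KO sum, whereas Col1a2 was lower in CypD KO (1.09 and 2.17 TPM) than in WT (9.03 and 6.87 TPM). The part of such markers in the values of the 60 genes was not tested. In the list of basement membrane and collagen chains, 4 of 22 tested genes were lower in CypD OE than in Control, Col16a1 among them, and 6 were higher. The share of lower genes was near that over all genes tested, 18.3%, and 19.0% of all were higher.

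The cytoskeleton and its links to the membrane gave 9 genes, of which 8 rose and 1 fell in CypD KO minus WT, beside 30.1% and 18.4% of all genes tested. The group was made after the values were seen, and the effect of the rule on this balance was not tested, so nothing is read from it. Tagln (transgelin), an actin-binding protein of contractile cells, measured 7.79 and 8.15 TPM in WT, 18.4 and 20.9 in CypD KO, 9.6 and 7.99 in Control and 1.08 and 0.74 in CypD OE, and CypD OE stood at 11.4% of WT. Ahnak and Ahnak2, very large scaffold proteins under the membrane, rose in CypD KO by 1.85 (SE 0.10, adjusted p = 1.66e-05) and by 1.47 (SE 0.07, adjusted p = 1.37e-05) on the log2 scale. Ahnak measured 4.85 and 5.28 TPM in WT, 21.6 and 20 in CypD KO, 6.8 and 6.58 in Control and 2.49 and 2.69 in CypD OE. Ahnak2 measured 14.8 and 15.5 TPM in WT, 44.2 and 43 in CypD KO, 22.2 and 20.5 in Control and 7.5 and 6.95 in CypD OE. In both, CypD OE was close to 50% of WT, so that most of their distance from CypD KO came from the higher knockout level. Epb41l4a, of the band 4.1 family, measured 7.95 and 9.01 TPM in WT, 23.5 and 23.6 in CypD KO, 10.6 and 10.1 in Control and 3.02 and 3.31 in CypD OE. Map6, a microtubule-stabilising protein gene, measured 19.3 and 22.1 TPM in WT, 54.8 and 50.7 in CypD KO, 15.1 and 14.6 in Control and 6.72 and 6.69 in CypD OE. It was higher in CypD KO and lower in Control than in WT (log2 fold change -0.45, SE 0.08, adjusted p = 0.0095). Enah (MENA), which extends actin filaments at the leading edge and had the highest mean of the 60, measured 148 and 169 TPM in WT, 182 and 195 in CypD KO, 221 and 201 in Control and 67.6 and 67.4 in CypD OE. Mylk, the kinase of myosin light chain, measured 26.9 and 29.1 TPM in WT, 35.2 and 31.8 in CypD KO, 32.1 and 32.8 in Control and 11.4 and 13.1 in CypD OE. Ppfibp2, a liprin scaffold, stood at 51.9% of WT, and Schip1, the only 1 of the 9 that fell in CypD KO (log2 fold change -0.33, SE 0.10, adjusted p = 0.0321), at 38.6%. Tagln is also in a list of YAP, actin and SRF genes, of which 7 of 50 tested were lower and 14 higher in CypD OE than in Control. In a list of EMT and mesenchymal genes that also holds Tagln, 14 of 43 were lower and 13 higher. Both lists stand beside 18.3% lower and 19.0% higher over all genes tested.

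Membrane, transport and surface proteins gave 10 genes, of which 4 rose and 1 fell in CypD KO minus WT, near the shares over all genes tested (30.1% and 18.4%). Pmp2, a lipid-binding protein of myelin, measured 8.56 and 9.7 TPM in WT, 4.05 and 5.74 in CypD KO, 7.48 and 5.82 in Control and 0.62 and 0.47 in CypD OE. It fell in CypD KO (log2 fold change -0.79, SE 0.18, adjusted p = 0.0109). Cd68, a lysosomal membrane glycoprotein best known from macrophages, measured 3.75 and 3.45 TPM in WT, 21.9 and 23.3 in CypD KO, 4.81 and 4.2 in Control and 1.13 and 1.91 in CypD OE. It had the largest rise of the 60 in CypD KO (log2 fold change 2.36, SE 0.16, adjusted p = 5.5e-05). The 10 macrophage and leukocyte markers summed to 3.84 to 4.55 TPM in WT, 24.5 to 25.3 in CypD KO, 4.72 to 4.90 in Control and 1.31 to 1.98 in CypD OE, and Cd68 made up most of each sum. Adgre1, Cd3e and Nkg7 were listed at 0 in all libraries. In a list of lysosome and autophagy genes, 29 of 55 tested were lower and 5 higher in CypD OE than in Control, with 28 of 54 lower without Cd68 and a list median of -0.24. Over all genes tested, 18.3% were lower and 19.0% higher. Tmem255a, a transmembrane protein gene on the X chromosome, measured 3.16 and 3.05 TPM in WT, 10.8 and 10.5 in CypD KO, 6.36 and 6.65 in Control and 1.12 and 1.32 in CypD OE. It rose in CypD KO (log2 fold change 1.51, SE 0.11, adjusted p = 6.13e-05) and in Control (log2 fold change 0.87, SE 0.11, adjusted p = 0.00206). Mr1, which presents vitamin B metabolites to T cells, measured 16.9 and 18.6 TPM in WT, 30.1 and 30.9 in CypD KO, 19.7 and 19.8 in Control and 8.57 and 7.95 in CypD OE. Myadm, a membrane protein of the myeloid differentiation family, measured 78.8 and 75 TPM in WT, 77.1 and 78.3 in CypD KO, 121 and 120.3 in Control and 40 and 42.9 in CypD OE. It rose in Control (log2 fold change 0.64, SE 0.05, adjusted p = 0.000279), with a CypD KO level within the spread of WT. Adgre5 (CD97), an adhesion G protein-coupled receptor, measured 5.67 and 4.36 TPM in WT, 6.37 and 4.52 in CypD KO, 6.45 and 7.11 in Control and 1.42 and 0.92 in CypD OE. Entpd2, which hydrolyses extracellular ATP, measured 4.07 and 5.56 TPM in WT, 5.72 and 4.98 in CypD KO, 4.79 and 4.57 in Control and 1.05 and 1.52 in CypD OE. For Adgre5 and Entpd2 no comparison among WT, CypD KO and Control passed. Slc26a7 and Ano3, an anion transporter and a scramblase-family protein, stood at 40.6% and 55.8% of WT in CypD OE and both rose in Control.

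Signalling and gene regulation gave 7 genes, of which 5 rose in CypD KO minus WT, beside 30.1% of all genes tested. This group too was made after the values were seen. Cpeb1, which binds polyadenylation elements in messenger RNA and controls translation, measured 16.1 and 19.9 TPM in WT, 24.2 and 23.9 in CypD KO, 28.9 and 27.8 in Control and 3.79 and 3.49 in CypD OE. Dok5, an adaptor of receptor tyrosine kinases, measured 10 and 12.8 TPM in WT, 50.3 and 47.2 in CypD KO, 12.7 and 12.2 in Control and 3.4 and 5.38 in CypD OE. This gene rose in CypD KO (log2 fold change 2.01, SE 0.18, adjusted p = 0.000177). Usp11, a deubiquitinase, measured 4.61 and 4.75 TPM in WT, 6.14 and 6.02 in CypD KO, 9.84 and 10.3 in Control and 1.91 and 1.63 in CypD OE. Mapk8ip1, the JNK scaffold JIP1, measured 81 and 77.4 TPM in WT, 93.1 and 92.5 in CypD KO, 133 and 139 in Control and 38.8 and 40.9 in CypD OE. Both of them had their highest level in Control, Usp11 with a log2 fold change of 0.96 over WT (adjusted p = 0.00126) and Mapk8ip1 of 0.78 (adjusted p = 0.000125). Ier5, an immediate early gene, measured 6.74 and 6.66 TPM in WT, 9.86 and 10.9 in CypD KO, 6.04 and 6.38 in Control and 2.57 and 2.39 in CypD OE. Cpne4, a calcium-dependent phospholipid-binding protein gene, measured 19.8 and 17.8 TPM in WT, 20.1 and 20.1 in CypD KO, 18.8 and 22 in Control and 8.06 and 6.37 in CypD OE. The 6 other libraries lay within 17.84 to 21.96 TPM, and no comparison among them passed. Thra, a thyroid hormone receptor, stood at 49.5% of WT in CypD OE.

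The remaining genes have other or less known functions. Eogt, which adds N-acetylglucosamine to extracellular EGF repeats, measured 112 and 107 TPM in WT, 69 and 75.7 in CypD KO, 154 and 156 in Control and 32 and 32.4 in CypD OE. It rose in Control (log2 fold change 0.50, SE 0.05, adjusted p = 0.00107) and fell in CypD KO (log2 fold change -0.59, SE 0.05, adjusted p = 0.000147). Lrrc75b, a leucine-rich repeat protein gene, measured 4.08 and 4.92 TPM in WT, 8.08 and 7.7 in CypD KO, 3.87 and 4.58 in Control and 0.79 and 0.71 in CypD OE. This gene rose in CypD KO (log2 fold change 0.70, SE 0.13, adjusted p = 0.00506). Scrn3 and 5031439G07Rik both rose in CypD KO and stood at 53% and 54.2% of WT in CypD OE.

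The gene lists covered few of the 60. Of 32 pathway lists, 10 held a member, and 46 of the 60 were in none. The TCA cycle and mitochondrial metabolism list, which holds Ppargc1a, had 17 of 57 tested genes lower and 13 higher in CypD OE than in Control. In the list of imprinted genes, which holds Peg13, 3 of 18 were lower and 5 higher. These counts stand beside 18.3% lower and 19.0% higher over all genes tested. Melanocyte, glycolysis and lysosome genes were thus mostly lower than in Control alongside their members. The Wnt and the NRF2 and glutathione lists had more genes higher than lower although their members were lower. These counts compare CypD OE with Control only, whereas the 60 genes were below all 6 other libraries. Control itself differed from WT in these lists. In Control minus WT, 27 of 42 melanocyte, 17 of 30 glycolysis and 23 of 55 lysosome genes were higher and 3, 2 and 1 lower. Of the NRF2 and glutathione list, 4 of 45 were higher and 21 lower, and of the Wnt list 1 of 26 and 6. Over all genes tested, the shares were 12.1% and 12.1%.

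**Figure D4:**
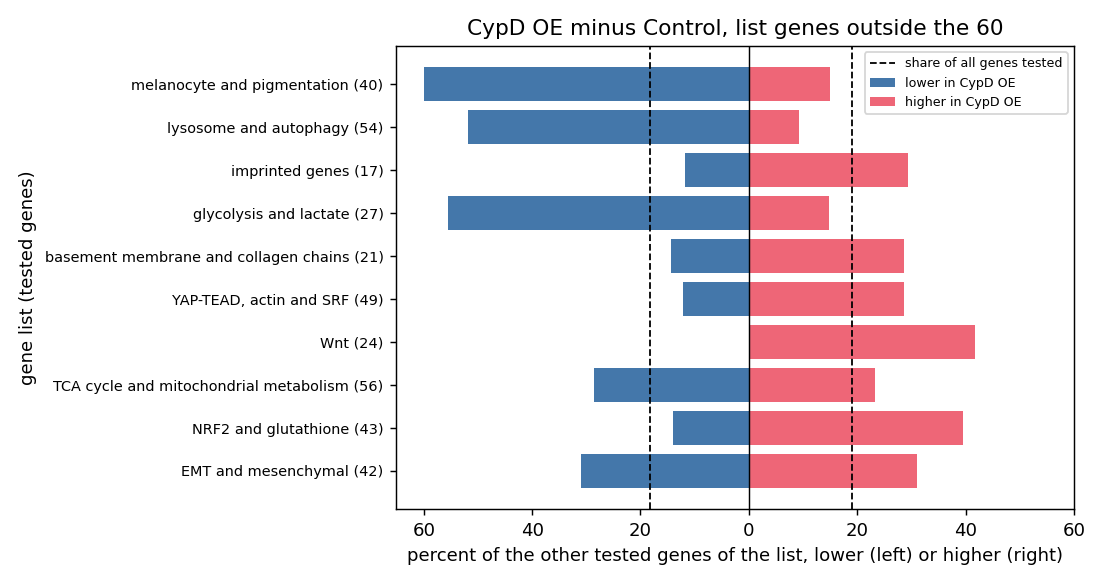
For the 10 gene lists that hold at least 1 of the 60 genes, bars give the percentage of the list's other tested genes that were lower (left) or higher (right) in CypD OE than in Control by limma, and dashed lines mark the shares over all genes tested, 18.3% and 19.0%. The bars to the left are longest for melanocyte and pigmentation (24 of 40), glycolysis and lactate (15 of 27) and lysosome and autophagy (28 of 54), and the Wnt list has none. Lists that hold none of the 60 are not shown. Among those, ER chaperones had 27 of 34 lower and 2 higher, and nuclear oxidative phosphorylation 41 of 76 lower and 7 higher. MYC and ribosome biogenesis had 4 of 45 lower and 34 higher.

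The 60 genes were spread over 17 chromosomes. Chromosome 7 held 8 of them, or 13.3% where it holds 7.31% of genes tested, and chromosome 15 held 5, or 8.33% against 3.88%. Only 4 had another of the 60 among the next 2 tested genes, in the pairs Ier5 with Mr1 on chromosome 1, 27639 bases apart, and Lrrc75b with Ggt1 on chromosome 10. Lrrc75b and Ggt1 lie on opposite strands and overlap by 8896 bases, and 19 of the 60 overlap a tested gene on the opposite strand. Whether the authors' counting used strand is not given in the sources used here, so reads in such overlaps cannot be assigned with certainty. On chromosome 10, 5 of the 60 (Lrrc75b, Ggt1, Mmp11, Pfkl and Fstl3) lie within 4.23 Mb, a stretch noticed after the values were seen, and the 45 other tested genes there had a median log2 difference between CypD OE and the other 6 libraries of -0.03, with 7 at -0.5 or below. One of the 7 is Aire, next to Pfkl, which measured 0.14 and 0 TPM in WT, 1.43 and 1.24 in CypD KO, 25.9 and 33.2 in Control and 0 and 0 in CypD OE. Gstt3, Mif, Chchd10, Prmt2 and S100b, also among the 7, lie within 500 kb of Mmp11. In that window, 5 of 14 other tested genes were at -0.5 or below. The count was 3 of 13 for Lrrc75b and for Ggt1, 1 of 16 for Pfkl and 3 of 34 for Fstl3. A shared low level within this stretch was not tested. Over all 60, the 701 other tested genes within 500 kb had a median difference of -0.04 and 12.8% were at -0.5 or below, where the 13417 tested genes outside the 60 with a position in the annotation had -0.04 and 12.4%. Pooled over the 60, the low level was thus not shared by their neighbours beyond the level of all genes. Gene by gene, the neighbours' median ran from -0.56 (5031439G07Rik) to 0.32 (Sox9). Chromosome 15 was looked at after the values were seen. The median there was -0.56 for 5031439G07Rik, -0.47 for Ccn4, -0.46 for Cmbl, -0.31 for Selenop and -0.15 for Peg13. Of their neighbours, 4 of 7, 3 of 6, 3 of 7, 0 of 1 and 0 of 4 were at -0.5 or below. A shared low level on that chromosome was not tested. The transcripts of the 60 genes had a median length of 3932 bases against 3025 over all genes tested. The 60 genes spanned a median of 26.8 kb against 21.5 kb.

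**Figure D5:**
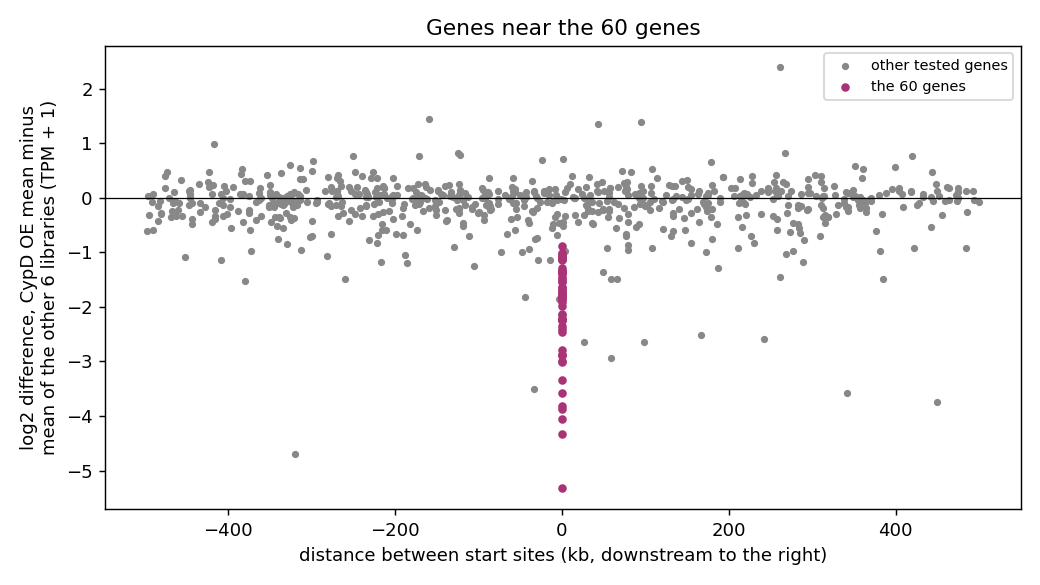
Each grey point is another tested gene, placed by the distance of its start from that of 1 of the 60 genes in kb and by the log2 difference between the CypD OE mean and the mean of the other 6 libraries. The 60 genes stand at distance 0, all below the line at 0, and the grey points spread around it at every distance, with a median of -0.04.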

How the data were processed

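RNA from cultured B16F10 cells was sequenced from total RNA libraries (KAPA RNA HyperPrep with RiboErase). Per the methods and the processing notes, the authors ran Cutadapt 3.4 on paired-end reads, used STAR 2.7.8a for alignment to GRCm39, and obtained gene-level estimates from RSEM 1.3.1. The deposited unit is TPM per gene, scaled by the authors within each library and written to 2 decimals. The authors used DESeq2 1.26.0 for their own tests. TPM is relative to all other transcripts of a library, and RSEM splits reads shared by similar genes. Groups and replicate numbers came from the sample labels (the library without a suffix is replicate 1), and 0 columns had no sample. The sources used here do not say whether replicates were separate cultures, so p-values measure the spread between these libraries, which may be technical.

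The 60 genes, the 32 pathway lists, the marker lists and the functional groups were chosen with earlier results of these data known. Genes named in full are the 25 with the largest ratio, those in a list, those next to another of the 60, those at the limits of the rule, the 5 largest increases and decreases in CypD KO minus WT and Control minus WT (3 decreases in the latter), the 5 with the highest mean, and Ppif. Other genes named were chosen after their values were seen. The test was limma 3.58.1 (R 4.3.3) on log2(TPM + 1) for the 13526 genes that reached 1 TPM in 2 or more of 8 libraries (4 group means, eBayes with trend, two-sided, Benjamini-Hochberg over all genes tested, threshold 0.05). Fold changes are on that scale and understate those of low genes. An exact permutation test of 2 against 2 cannot go below p = 0.333 and was not used. On simulated data for CypD KO minus WT over 13526 genes, 80% of 200 genes given a log2 change of 1 were called, with 7 false calls, and 0 genes were called where nothing had been changed. Steps between low TPM values gave 0.0815 to 0.098 TPM for 1 fragment at 1000 effective bases, or about 25600000 to 30100000 fragments per library, with 81.9% to 84.5% of the values used within 0.15 of a whole number. Gene positions were taken from GENCODE vM39, on GRCm39. Alternatives were other limits of the rule, a pseudocount of 0.1, no filter or 5 TPM, median-of-ratios size factors, 4-library fits, no trend, a replicate block, and leaving out each library. Tables were joined with Python 3.11.15 and pandas 2.3.3.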

Additional observations from a re-analysis of the deposited data

How the results depend on the processing

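The number of genes meeting the rule was 110 with a fold limit of 1.5, 41 with a limit of 2, 90 with a minimum of 1 TPM, 46 with 5 TPM and 64 after median-of-ratios rescaling, with 59 of the 60 in the last. Leaving out 1 library gave 60 to 98. For genes lower in Control minus WT, a fit of its 4 libraries alone gave 1, and leaving out 1 library gave 0 to 3. Leaving out 1 library gave 29 to 33 higher and 8 to 10 lower genes in CypD KO minus WT, 19 to 25 higher in Control minus WT, and 20 to 23 higher and 14 to 17 lower in CypD KO minus Control. For Ppif in CypD OE minus Control it gave log2 fold changes of 0.16 to 0.23, past the threshold in the cases stated above. Counting motifs on the gene's own strand left 2 windows with CATGTG and 1 with TGACTCA. Of 111 calls among the 60 genes over 3 comparisons, 88 were made under every alternative and 0 reversed; each of the others lost its call under at least 1. The replicate numbers do not pair the libraries, since deviations from group means correlated at -0.03 to 0.108 between groups. With the replicate block, 31 genes rose and 10 fell in CypD KO minus WT, 22 rose and 2 fell in Control minus WT, and 21 were higher and 16 lower in CypD KO minus Control. Values of a few fragments, as for Pcdhgb1 and Fstl3 in CypD OE, are limited by depth.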
